A study of Mus musculus with 9 samples.

Results

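The genes described here encode secreted proteins of the bone morphogenetic protein (BMP) and activin pathway. They comprise the ligand genes Bmp2, Bmp4, Bmp5, Gdf5 and Inhba and the antagonist genes Grem1, Chrdl1, Nog and Fst, 9 of the 19937 genes that the array names. They were chosen by symbol, with earlier results of these same arrays known, so their differences between genotypes are given as a description with no test. Each gene had 1 probe set with a symbol of its own. The level of each gene is the log2 expression value of that probe set after RMA (robust multi-array average) processing.

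RNA of cultured mouse embryonic fibroblasts (MEFs), the mesenchymal cells that grow out of dissociated embryos, was hybridised to 9 Affymetrix arrays. The cells were p27CK (CK), p27 knockout (KO) or wild type (WT) at Cdkn1b, which encodes the cyclin-dependent kinase inhibitor p27, with 3 arrays per genotype. The labels give p27CK as a name only; in the literature it denotes a p27 unable to bind cyclin and CDK. Cells of all genotypes were cultured in 10% serum and then starved of serum for 72 h, a treatment that brings fibroblasts into quiescence. The extraction protocol of every sample mentions delta51 mice beside wild type, and the allele meant by delta51 is not explained. Strain, embryo age, the design of either allele and the number of embryos or cultures behind each genotype are not given in the sources used here. The effects of genotype and of culture therefore cannot be told apart, and a p-value reflects array-to-array spread that may be only technical.

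BMPs and activins are dimeric ligands of the TGF-beta superfamily that bring together type I and type II receptor kinases at the cell surface. BMP receptors then phosphorylate Smad1, Smad5 and Smad9, activin receptors phosphorylate Smad2 and Smad3, and these proteins enter the nucleus with Smad4. Well-known BMP targets include the Id genes and the inhibitory Smads, Smad6 and Smad7, which restrain the pathway in turn. Secreted antagonists bind ligands outside the cell and keep them from the receptors. In embryonic mesenchyme the balance of ligands and antagonists is known for its part in patterning limb, cartilage and bone.

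Promoter sequences from RefSeq (mouse build GRCm38.p6) were found for 4 of the 9 genes, Bmp4, Bmp5, Inhba and Grem1. The 250 bases upstream of the start are shown for Grem1 and Inhba, which were both highest in CK and lowest in KO, and for Bmp4, which was lowest in CK. They lie at chr2:113758649-113758898 (minus strand) for Grem1, chr13:16011601-16011850 (plus strand) for Inhba and chr14:46390670-46390919 (minus strand) for Bmp4. They run 5′ to 3′ and capitals mark a match to any of 4 motifs searched on both strands.
Grem1: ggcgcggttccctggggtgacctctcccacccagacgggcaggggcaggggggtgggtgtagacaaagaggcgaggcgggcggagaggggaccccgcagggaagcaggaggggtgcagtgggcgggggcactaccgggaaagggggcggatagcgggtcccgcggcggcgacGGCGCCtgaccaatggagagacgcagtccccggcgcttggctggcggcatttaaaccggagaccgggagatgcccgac
Inhba: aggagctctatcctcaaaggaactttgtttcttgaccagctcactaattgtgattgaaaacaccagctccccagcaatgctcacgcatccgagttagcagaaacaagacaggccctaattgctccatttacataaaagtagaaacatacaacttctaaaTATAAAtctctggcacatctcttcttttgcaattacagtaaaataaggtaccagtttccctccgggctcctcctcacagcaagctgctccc
Bmp4: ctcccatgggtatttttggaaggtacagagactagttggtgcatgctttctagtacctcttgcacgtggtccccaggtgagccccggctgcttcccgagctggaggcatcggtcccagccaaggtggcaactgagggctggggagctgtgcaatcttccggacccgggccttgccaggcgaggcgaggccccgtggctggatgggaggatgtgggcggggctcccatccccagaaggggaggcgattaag
The motifs were GGCGCC (a GC-rich BMP-responsive element), GTCTAGAC (the palindromic Smad-binding element), TATAAA (the TATA box) and TGANTCA (the AP-1 site). GGCGCC lay 78 to 73 bases upstream of the start in Grem1, and 9.59% of 32851 promoter windows of this length hold it. TATAAA lay 91 to 86 bases upstream in Inhba and is held by 12.4% of windows. The Bmp4 window had no match to these letters, nor did the Bmp5 window, and GTCTAGAC and TGANTCA, held by 0.167% and 6.75% of windows, were in none of the 4. No motif was shared by Grem1 and Inhba, and their windows differed in base composition, with 72.0% G and C in Grem1 and 43.2% in Inhba, against a median of 52.4% over all windows. A match describes the letters only.

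The targeted gene was read on its brighter probe set. Mean Cdkn1b levels (log2 ± SD, n = 3) were 11.10 ± 0.09 in CK arrays, 7.38 ± 0.11 in KO arrays and 11.46 ± 0.04 in WT arrays. KO minus WT was -4.09 (SE 0.07, adjusted p = 2.35e-11, limma). CK minus WT was smaller, at -0.37 (SE 0.07, adjusted p = 0.00101, limma). Array medians lay between 7.29 and 7.40, and Pearson correlations across probe sets were 0.995 to 0.998 within a genotype and 0.964 to 0.975 between genotypes. Of 10 fibroblast markers, 9 in CK, 8 in KO and 9 in WT had a mean above 7.24, the 40th percentile of gene means, below which genes were not tested. The mean of the fibroblast markers per array was 11.90 to 11.99 in CK, 11.16 to 11.19 in KO and 11.94 to 12.08 in WT, and of 9 tested limma called 1 higher and 7 lower in KO than in WT, and 1 higher and 3 lower in CK than in WT. Thy1, a fibroblast surface marker, was at 11.69 in CK, 7.14 in KO and 11.73 in WT. Of 8 cartilage cell markers, 4 in CK, 8 in KO and 5 in WT were above 7.24. The mean of these markers per array was 7.72 to 7.78 in CK, 10.61 to 11.01 in KO and 8.63 to 8.74 in WT, and limma called all 8 higher in KO than in WT and 3 lower in CK than in WT. Among them Cnmd had the largest gap between CK and WT, at 7.30 in CK, 13.85 in KO and 13.33 in WT. Acan went the other way, at 6.64 in CK and 6.42 in WT. The 5 endothelial and 5 macrophage markers averaged 6.32 to 6.41 and 6.72 to 6.73 in CK, 6.35 to 6.41 and 6.58 to 6.71 in KO, and 6.89 to 6.98 and 7.12 to 7.17 in WT. In each of these lists 1 gene was tested, Tek (6.51 in CK, 6.80 in KO and 8.77 in WT) and Cd68 (8.59 in CK, 7.99 in KO and 10.64 in WT), and the defining genes Pecam1 and Ptprc were below 7.24 in every genotype. Nes, of the neural list, read 9.50 in CK, 6.003 in KO and 6.04 in WT. The fibroblast and cartilage lists and the genes Tek, Cd68 and Nes thus also differed between genotypes, and their part in the results below was not tested. In these bulk samples fewer cells of a type and less RNA per cell cannot be told apart.

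**Figure D1:**
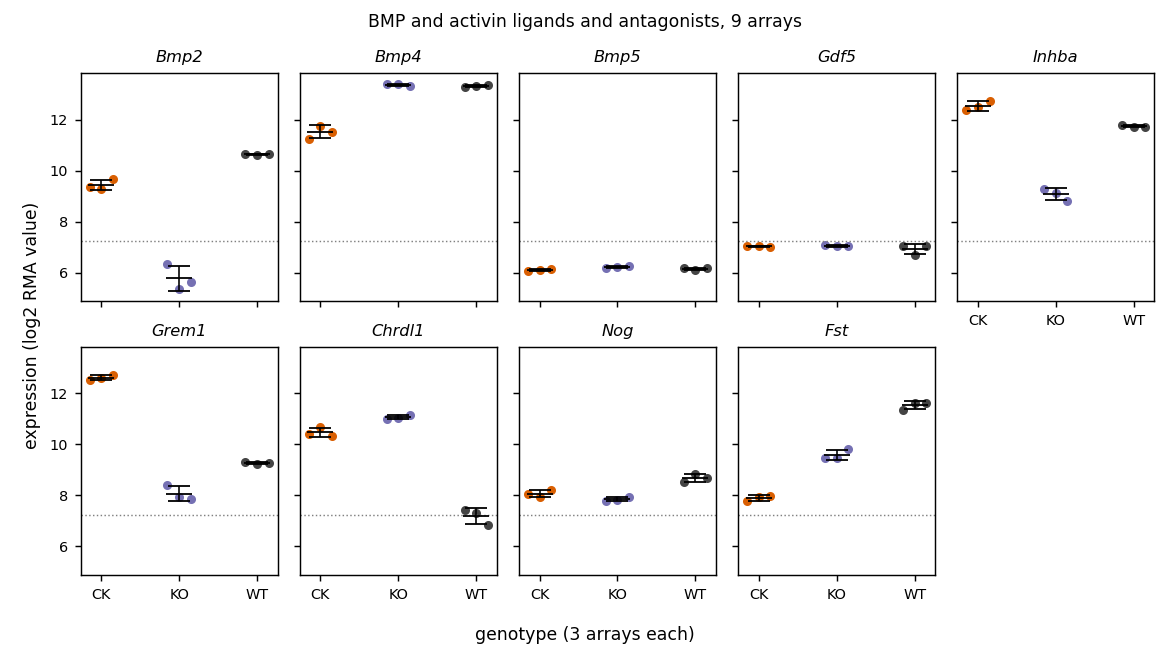
Level of each of the 9 genes (log2 RMA value, vertical axis) on every array, by genotype. Points are arrays, bars are mean ± SD (n = 3) and the dotted line is 7.24, below which genes were not tested; Bmp5 and Gdf5 lie under it on all arrays, and Grem1 and Inhba are highest in CK and lowest in KO.

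Of the BMP ligand genes, Bmp2 was far below WT in KO and moderately below WT in CK, whereas Bmp4 was lower in CK alone. Bmp2 encodes a strong inducer of bone and cartilage. It read 9.34, 9.28 and 9.66 in CK, 6.33, 5.38 and 5.63 in KO, and 10.64, 10.61 and 10.67 in WT. The 3 genotypes did not overlap, and the KO arrays lay below 7.24, where a value may be background because the table has no detection calls. The mean difference was -1.21 for CK minus WT (SE 0.20), -4.86 for KO minus WT and 3.65 for CK minus KO, which are 2.32-fold lower, 29.0-fold lower and 12.5-fold higher measured values. Of the genes tested, 0.159% had a larger measured difference between KO and WT than Bmp2. The Bmp2 arrays also spread more widely in KO (SD 0.49) than in WT (SD 0.03).

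Bmp4 encodes the BMP of early mesoderm and limb mesenchyme, a close relative of BMP2. It read 11.26, 11.77 and 11.53 in CK, 13.38, 13.41 and 13.32 in KO, and 13.26, 13.31 and 13.34 in WT. Every CK array lay below all other arrays, and KO and WT overlapped. CK was 3.45-fold below WT (log2 difference -1.79, SE 0.10) and 3.61-fold below KO (-1.85), and KO minus WT was 0.07 with the same SE. The Bmp4 means were 13.37 ± 0.04 in KO and 13.31 ± 0.04 in WT.

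Bmp5 and Gdf5, whose proteins act in skeletal and joint development, were dim on every array. Bmp5 ranged from 6.05 to 6.14 in CK, 6.19 to 6.25 in KO and 6.11 to 6.17 in WT. Gdf5 ranged from 7.03 to 7.04 in CK, 7.03 to 7.08 in KO and 6.69 to 7.06 in WT. In both genes the differences between genotypes were at most 0.12 on the log2 scale, and Gdf5 overlapped in all 3 comparisons. Both fell under 7.24 and were not tested, so the arrays give no evidence on whether these genes were expressed.

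Inhba, the activin ligand gene, encodes the subunit that forms activin A as a homodimer. It read 12.36, 12.50 and 12.74 in CK, 9.28, 9.14 and 8.82 in KO, and 11.79, 11.72 and 11.73 in WT. No genotypes overlapped, with CK above WT and KO below both. CK minus WT was 0.78 (SE 0.12), KO minus WT was -2.67 and CK minus KO was 3.45, a 10.95-fold difference.

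Grem1 encodes gremlin 1, an antagonist that binds BMP2 and BMP4 and maintains limb outgrowth. It read 12.51, 12.61 and 12.71 in CK, 8.40, 7.95 and 7.85 in KO, and 9.31, 9.22 and 9.26 in WT. The order was CK, WT and then KO, with no overlap. CK was 10.15-fold above WT (log2 difference 3.34, SE 0.12) and 23.3-fold above KO (4.54), while KO was 2.29-fold below WT (-1.20). Grem1 therefore had the same order of genotypes as Inhba, whereas Bmp4, a ligand that gremlin 1 binds, was lowest in CK.

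Chrdl1 encodes chordin-like 1, which binds BMP4 and other BMPs. It was high in both mutants and near 7.24 in WT. The arrays read 10.42, 10.68 and 10.35 in CK, 11.00, 11.03 and 11.16 in KO, and 7.44, 7.31 and 6.83 in WT. CK was 9.80-fold (3.29, SE 0.14) and KO 14.6-fold (3.87) above WT, folds of measured values because WT may be at background. CK was below KO by a smaller amount (-0.58), also without overlap. Chrdl1 passed the filter on dim genes only through the mutants.

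Nog encodes noggin, a high-affinity BMP antagonist, and Fst encodes follistatin, which binds activin and, less tightly, some BMPs. Nog read 8.05, 7.93 and 8.20 in CK, 7.78, 7.83 and 7.95 in KO, and 8.52, 8.83 and 8.69 in WT. Both mutants lay below WT on every array, with CK minus WT at -0.62 (SE 0.09) and KO minus WT at -0.83, and CK overlapped KO. Fst read 7.78, 7.94 and 7.97 in CK, 9.48, 9.48 and 9.82 in KO, and 11.36, 11.61 and 11.63 in WT. The 3 genotypes formed separate steps, lowest in CK. CK was 12.4-fold below WT (-3.64, SE 0.11) and KO 3.83-fold below WT (-1.94), and CK minus KO was -1.70. Inhba and Fst, an activin subunit and an activin-binding protein, differed from WT in opposite directions in CK (0.78 and -3.64) and in the same direction in KO (-2.67 and -1.94).

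**Figure D2:**
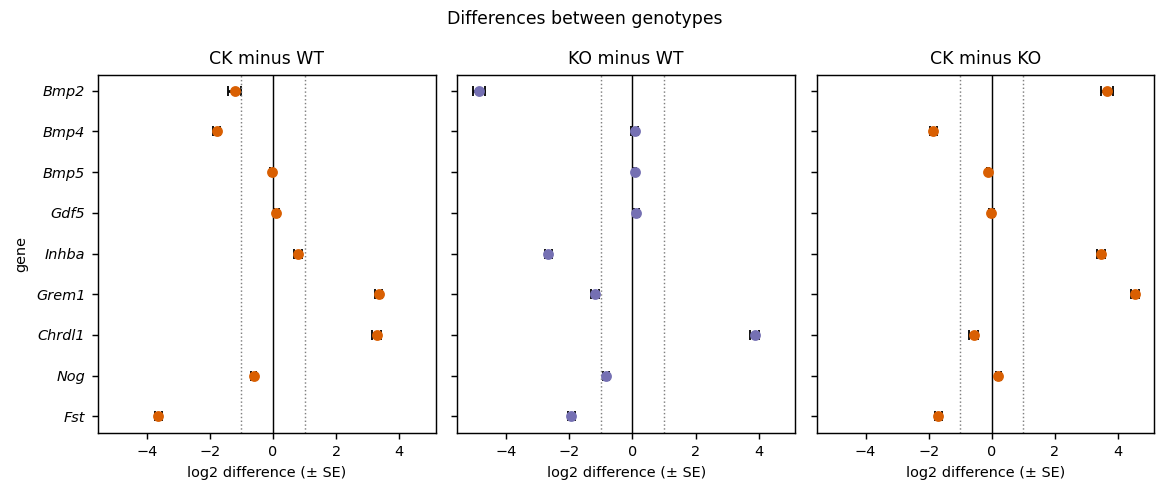
Log2 differences (horizontal axis, ± SE from the limma fit) of the 9 genes for CK minus WT, KO minus WT and CK minus KO. Dotted lines mark a 2-fold difference; Grem1 and Inhba lie right of 0 for CK minus WT and left of it for KO minus WT, Chrdl1 lies near 3.29 and 3.87 in both, and Bmp4 is near 0 only for KO minus WT.

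Counted over the 9 genes, differences of at least 2-fold without overlap of arrays numbered 5 in each comparison. In CK versus WT, Grem1 and Chrdl1 were higher and Bmp2, Bmp4 and Fst lower, where 10.8% of the 11962 genes tested met the same criteria (5.00% higher and 5.80% lower). In KO versus WT, Chrdl1 was higher and Bmp2, Inhba, Grem1 and Fst lower, against 8.76% of tested genes (3.35% higher and 5.41% lower). In CK versus KO, Bmp2, Inhba and Grem1 were higher and Bmp4 and Fst lower, against 12.4% of tested genes (7.06% higher and 5.38% lower). At any size, 7 of 9 genes did not overlap in each comparison, beside 67.3%, 60.9% and 67.5% of tested genes for CK versus WT, KO versus WT and CK versus KO. The median difference of the 9 genes was -0.05, -0.83 and -0.01 in that order, beside -0.01, 0.01 and -0.02 over all tested genes. Because the genes were picked with these contrasts in view, nothing is read from these counts. The CK and KO differences share the same WT arrays. In all, 7 of the 9 genes passed the filter on dim genes. The counts without overlap include the untested Bmp5 in KO versus WT and in CK versus KO, whereas the shares cover tested genes only.

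Among 11533 other named genes, those whose profile over the 9 arrays came closest were found by the root mean square (RMS) difference of values taken relative to each gene's WT mean. Closest to Grem1 were Kera, which encodes a proteoglycan of the cornea (RMS difference 0.18, CK minus WT 3.50, KO minus WT -1.09), and Tcim (0.30). Plag1, a zinc finger transcription factor gene, was nearest to Inhba (0.10), with 0.78 for CK minus WT and -2.68 for KO minus WT, followed by Slc6a17 (0.19). Bmp4 was matched by Pygo1, a Wnt pathway cofactor gene (0.13), and Phactr1 (0.15). Fst lay nearest to Klhdc8a (0.20) and the sterol reductase gene Tm7sf2 (0.28). Bmp2 lay nearest to Igfbp4, which encodes an IGF-binding protein (0.32), and Lhfpl2 (0.34). Chrdl1 was closest to the amino acid transporter gene Slc38a4 (0.38) and the adhesion receptor gene Adgrg6 (0.39), and Nog to Egr3 (0.10) and Sec61a2 (0.11). The nearest genes to the dim Bmp5 (Casp2 and Tmbim4) and Gdf5 (Fdx1 and Cnot10) were simply genes with little change.

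Other genes of the pathway were taken from 5 lists made by role, though with earlier results of these arrays known, and these genes were tested with limma, adjusted over all 11962 genes. Of 93 listed genes 90 had a probe set and 62 passed the filter on dim genes. In CK versus WT 16 rose and 31 fell, in KO versus WT 13 rose and 35 fell, and in CK versus KO 22 were higher and 26 lower. The called shares were 75.8%, 77.4% and 77.4% of tested list genes, beside 62.9%, 51.2% and 62.2% of all tested genes. By direction, limma called 30.7% of all tested genes higher and 32.1% lower in CK versus WT, 26.6% higher and 24.6% lower in KO versus WT, and 29.5% higher and 32.7% lower in CK versus KO.

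The other ligand genes went both ways. Of 24 listed, 7 were tested, of which 3 rose and 2 fell in CK versus WT (1 fell without WT replicate 3 or without CK replicate 1), 2 rose and 2 fell in KO versus WT, and 3 were higher and 2 lower in CK than in KO. The list median was 0.20 in CK versus WT and -0.03 in KO versus WT, beside -0.01 and 0.01 over all tested genes. Bmp3, whose protein opposes osteogenic BMPs, rose to 9.38 ± 0.25 in CK, against 7.61 ± 0.14 in WT (adjusted p = 1e-06, limma, n = 3), and read 7.58 ± 0.20 in KO. Bmp6 rose by 0.80 in CK. Gdf10 fell to 8.67 ± 0.18 in CK and to 9.50 on all 3 KO arrays, against 10.45 ± 0.40 in WT, where arrays read 10.72, 10.65 and 9.98. The 3 KO values were identical, as they were in 1.31% of all probe sets, so they give no measure of spread. Gdf7 rose by 1.19 in KO (SE 0.13), and Inhbb, the other common activin subunit gene, rose by 0.77 in CK and 0.75 in KO.

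Among other extracellular antagonists and modulators, 12 of 19 listed genes were tested. In CK versus WT 3 rose and 6 fell (median -0.20), in KO versus WT 3 rose and 7 fell (median -0.24), and in CK versus KO 5 were higher and 4 lower. Fstl3, which encodes a follistatin-like activin-binding protein, rose to 11.24 ± 0.05 in CK, against 9.32 ± 0.08 in WT (log2 difference 1.92, limma adjusted p = 3.51e-09), whereas Fst was lower there. CK exceeded KO on Fstl3 by 2.37. Htra1, a secreted serine protease gene, rose by 3.17 in CK (SE 0.24) and by 1.39 in KO, with WT arrays at 10.01, 9.87 and 8.87. Nbl1, a relative of the gremlins, fell by 0.87 in KO, Crim1 fell by 0.55 in CK and rose by 0.62 in KO, and Chrd, the gene for chordin, rose by 0.47 in KO. Bmp1, whose protein is a protease that cleaves chordin and not a BMP ligand, fell by 0.47 in KO, and Twsg1 fell by 0.46 in CK.

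Receptor and co-receptor genes fell more often than they rose in both mutants. Of 17 listed, 13 were tested, with 3 higher and 6 lower in CK versus WT (median -0.15), 2 higher and 8 lower in KO versus WT (median -0.42), and 5 higher and 3 lower in CK versus KO. Eng, which encodes the co-receptor endoglin, fell to 7.65 ± 0.14 in CK and 7.81 ± 0.05 in KO, against 10.50 ± 0.11 in WT (limma adjusted p = 6.8e-10 and 9.24e-10). Acvrl1, which encodes the type I receptor ALK1, fell by 1.71 in CK and fell by 1.57 in KO. Both genes are known for their roles in endothelium. Among the endothelial markers, Tek read 6.51 in CK, 6.80 in KO and 8.77 in WT. The others were under 7.24 in every genotype. In the same order, Cdh5 read 6.59, 6.64 and 7.18, and Kdr 6.34, 6.08 and 6.14. Pecam1 read 6.67, 6.67 and 6.74, and Emcn 5.76, 5.72 and 5.81. Any relation of these markers to Eng and Acvrl1 was not tested. Acvr2a, a type II receptor gene for activins and BMPs, rose by 1.23 in CK (SE 0.11) and fell by 0.66 in KO. It was higher in CK than in KO by 1.89. Rgmb fell by 1.00 in CK, Tgfbr3 fell by 0.93 in KO, and Bambi, a decoy receptor gene, rose by 0.93 in KO.

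Genes of Smads and their regulators were split. All 15 listed were tested, of which 5 rose and 6 fell in CK versus WT (median 0.07), 3 rose and 6 fell in KO versus WT (median -0.04), and 6 were higher and 7 lower in CK than in KO. Smad9, a BMP receptor-activated Smad gene, fell to 8.22 ± 0.14 in CK, against 10.31 ± 0.07 in WT. This is a log2 difference of -2.09 (SE 0.08, adjusted p = 4.77e-09, limma), and CK minus KO was -1.63. Of the other Smads that BMP receptors phosphorylate, Smad1 rose by 0.43 in CK versus WT and Smad5 was not called (0.07). Smad3, which transmits activin and TGF-beta signals, rose by 1.31 in KO (SE 0.07). Smurf2, a ubiquitin ligase gene of the pathway, fell by 0.78 in CK and rose by 0.76 in KO, and Tgif1, a corepressor gene, rose by 0.51 in CK and fell by 0.37 in KO.

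**Figure D3:**
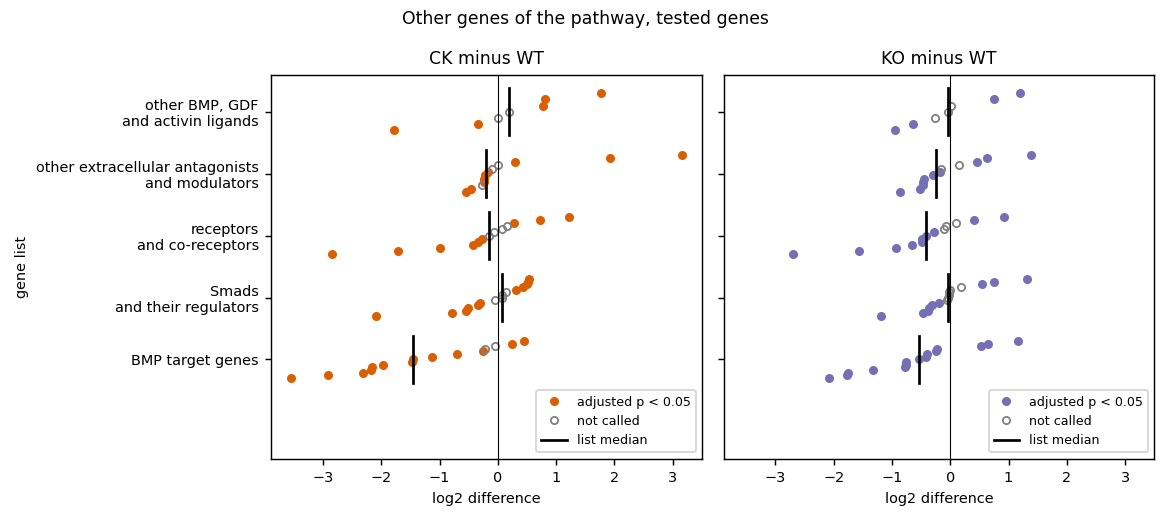
Log2 differences (horizontal axis) of tested genes in the 5 pathway lists (rows) for CK minus WT and KO minus WT. Filled points were called by limma, open grey points were not, and black bars are list medians, which for BMP target genes are -1.46 in CK and -0.54 in KO.

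Genes known as BMP targets were mostly lower than WT in both mutants, with the deeper median fall in CK. Of 18 listed, 15 were tested, and in CK versus WT 2 rose and 11 fell, with a median of -1.46 beside -0.01 over all tested genes. In KO versus WT 3 rose and 12 fell (median -0.54), and in CK versus KO 3 were higher and 10 lower (median -0.92). The Id genes encode inhibitors of basic helix-loop-helix factors. Id1 read 9.03, 9.00 and 9.24 in CK, 10.67, 10.64 and 10.64 in KO, and 11.47, 11.37 and 11.37 in WT. The 3 genotypes formed separate steps, and Id1 fell by 2.32 in CK (SE 0.07, limma adjusted p = 1.03e-09) and fell by 0.76 in KO (adjusted p = 5.95e-06).

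The other Id genes had the same order. Id2 fell by 2.15 in CK and fell by 0.40 in KO, and Id3 fell by 1.96 in CK and fell by 0.54 in KO. Id4 fell by 2.91 in CK and fell by 1.76 in KO (SE 0.06). The direct comparison of CK with KO gave -1.56 for Id1, -1.75 for Id2 and -1.42 for Id3 (limma adjusted p = 1.43e-08, 2.53e-09 and 2.5e-06), so these falls were deeper in CK.

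The inhibitory Smads did not move together. Smad6 read 8.68, 8.92 and 9.24 in CK, 11.00, 10.99 and 10.82 in KO, and 10.43, 10.41 and 10.39 in WT. It fell by 1.47 in CK (SE 0.12, limma adjusted p = 1.58e-06) and rose by 0.53 in KO (adjusted p = 0.00348), with no overlap between genotypes. Smad7 fell by 0.71 in CK and fell by 0.41 in KO, and the arrays of CK and KO overlapped on it. CK minus KO for Smad7 was -0.29 (limma adjusted p = 0.012, and 0.0506 without KO replicate 2).

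Transcription factor genes of this list differed as well. Dlx5, a homeobox factor of the skeleton, fell to 7.13 ± 0.18 in CK, against 10.68 ± 0.06 in WT (log2 difference -3.55, SE 0.08, a difference of measured values because the CK mean lies under 7.24 and may be background), and stood at 9.91 ± 0.03 in KO. Atoh8 read 8.31 ± 0.20 in CK and 11.13 ± 0.10 in KO (CK minus KO -2.82, limma adjusted p = 1.52e-09). Gata3 fell by 2.08 and Tbx3 fell by 1.75 in KO, and Tbx3 was higher in CK than in KO by 2.20. Msx1 rose by 1.16 in KO. The 2 target genes that rose in CK versus WT were Tbx3 (0.45) and Msx1 (0.24), and Gata3 was not called there (-0.04). Sp7, the osteoblast factor osterix, was chosen for mention after its values were seen. Its mean was under the filter and it was not tested, at 6.21 ± 0.02 in CK, 6.32 ± 0.13 in KO and 8.86 ± 0.11 in WT. No relation between the levels of ligands or antagonists and those of target genes was tested, since the arrays of each genotype form a cluster.

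**Figure D4:**
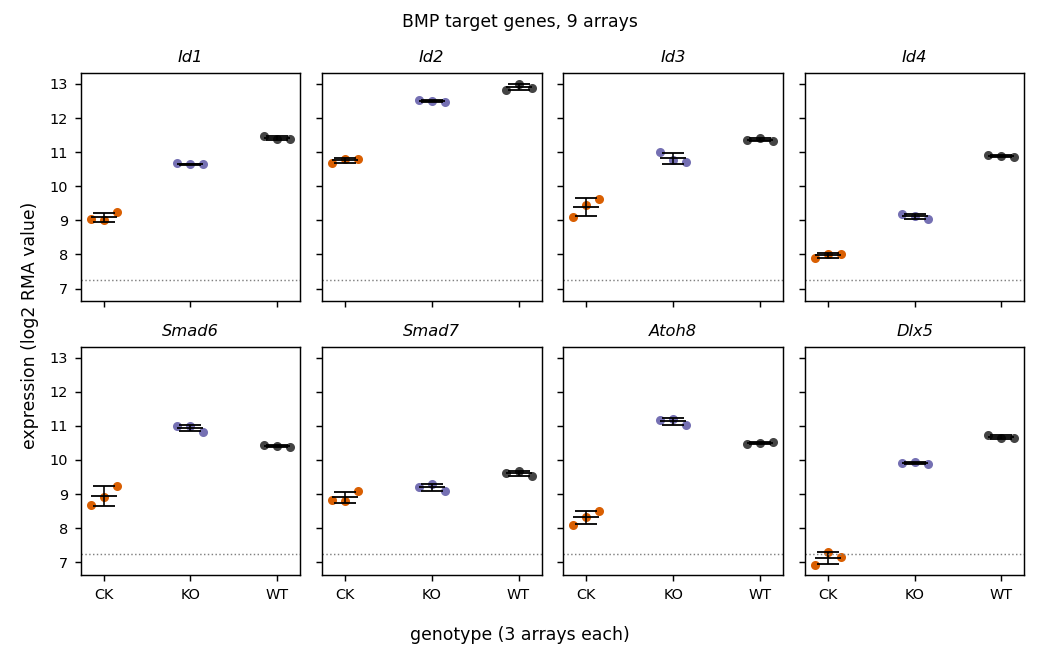
Level of 8 BMP target genes (log2 RMA value, vertical axis) on every array, by genotype. The 8 are a selection from the 15 tested, and Tbx3 and Msx1, not shown, rose in CK versus WT. Of the others not shown, Msx2 and Gata3 were lowest in KO, Gata2 was lowest in CK, and CK overlapped KO on Dlx3 and Alpl. Points are arrays, bars are mean ± SD (n = 3) and the dotted line is 7.24; CK arrays are lowest for all genes shown, overlapping KO only for Smad7, and KO arrays lie above WT for Smad6 and Atoh8.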

How the data were processed

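The deposited table holds 34760 probe sets in 9 arrays as log2 expression values. Per the submitters' processing notes, the authors used RMA and affy. Versions, annotation and filters are not given in the sources used here. RMA corrects background, quantile-normalizes between arrays and summarises probes by median polish, which hides changes in total RNA content. No deposited value held its decimal mark. Read with the mark after the leading digit, strings starting with 1 lay between 1.00 and 1.44 and all others at 4.28 or more, so strings starting with 1 were read as 10 or more, giving 4.28 to 14.44. In 2242 pairs of genotype and probe set with arrays on both sides of 10, the median range was 0.263 after this step, against 8.92 before it.

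Gene names came from the platform annotation, in which 21640 probe sets have 1 symbol, 1321 have several and 11799 have none. Identifiers of 21553 were found in a RefSeq table of GRCm38.p6. The brightest probe set of each gene was used, and the 11962 genes whose mean reached the 40th percentile (7.24) were tested in a limma fit of all 9 arrays by genotype (limma 3.58.1, R 4.3.3). Calls required p under 0.05 after Benjamini-Hochberg adjustment. SEs of the 9 genes come from this fit, and those of Bmp5 and Gdf5 from the same fit without the filter. The fit was tested on simulated data with independent noise on each array, which cannot show how p-values behave if arrays share a culture. The members and gene lists were chosen with earlier results of these data known. Named genes were the 9 members, Cdkn1b, Id1, Id2, Id3, Smad6 and Smad7, up to 4 called genes per list and comparison with the smallest p, and the 2 nearest profiles of each member. Cell type markers, Smad1, Smad5, Sp7, Msx2, Gata2, Dlx3 and Alpl were named outside this rule, and some genes were also given in comparisons outside it. Listed genes with no matching single-symbol probe set were not analysed here. Alternatives were other filters, probe set rules, scalings, variance models, thresholds, 6-array fits, the replicate number as a block, and leaving out each array. The number of arrays and the unknown number of cultures behind them limit the precision, and the median residual SD was 0.0875.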

Additional observations from a re-analysis of the deposited data

How the results depend on the processing

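Of 270 alternative values for the log2 differences of the 9 genes (other scaling, probe set rule, replicate block, each array left out), 268 kept their direction, and the other 2 were of Gdf5, which overlapped in every comparison. With 1 probe set per gene and equal replicates, the probe set rule and the replicate block could not change a difference. Median centring moved no array by more than 0.061, so the count says little beyond the values with arrays left out. Of 1006 alternative values for named pathway genes, 1005 kept their direction and call. The exception was Smad7 in CK minus KO without KO replicate 2 (limma adjusted p = 0.0506). Apart from Id1, Id2, Id3, Smad6 and Smad7, these genes were named for a small p on the same arrays. Several settings also leave the difference itself unchanged, so this count was largely fixed in advance and nothing is read from it. At a 4-fold threshold 3 of the 9 genes remained in each comparison in place of 5. Requiring 2-fold differences besides the adjusted p left 1049, 1293 and 1489 genes called for KO minus WT, CK minus WT and CK minus KO, and 11, 17 and 19 pathway list genes in place of 48, 47 and 48, by construction. Without the filter on dim genes 5 other ligand genes in place of 3 were higher in CK than in WT and in CK than in KO, and 5 other antagonist genes in place of 3 rose in KO versus WT. With the filter at the 50th percentile 1 target gene in place of 2 rose in CK versus WT, and with further quantile normalization 5 receptor genes in place of 3 were lower in CK than in KO. Leaving out each array gave 5298 to 5904, 6959 to 7225 and 6788 to 7228 genes called, 45 to 48, 44 to 48 and 45 to 49 pathway list genes, and 5 members throughout. Correlations of deviations between arrays of the same replicate number were 0.05 to 0.36 for KO and WT. They were -0.20 to -0.03 for CK and WT and -0.30 to 0.05 for CK and KO. Whether the numbers pair the arrays was not tested. With the replicate block 5979, 7377 and 7291 genes and 48, 47 and 47 pathway list genes were called. The table has no detection calls, so low levels (Bmp2 in KO, Chrdl1 in WT, Dlx5 in CK, Bmp5 and Gdf5) may be background.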
